A study of Mus musculus with 4 samples.

Results

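Transcripts of 9 neutrophil and inflammatory monocyte genes were followed through RNA sequencing libraries of CD8+ T cells taken from mouse tumours. The genes were S100a8, S100a9, Csf3r, Il1b, Cxcl2, Cxcl3, Lcn2, Slpi and Cd14, which are 9 of the 24537 genes in the deposited table, found there by symbol. They were chosen as a trace of other tumour cells with their levels in these same libraries already known, so the levels and differences below are a description and carry no test of their own. The 2 libraries labelled ACSS2NLS were set against the 2 labelled EV, the control. All 4 were labelled as CD8+ cells from B16-GP33 tumours and day 21. B16 is a melanoma of mice, and GP33 is a viral epitope seen by CD8+ T cells. The enzyme ACSS2 turns acetate into acetyl-CoA, and NLS commonly stands for nuclear localisation signal. The labels give no mouse, sex, age, promoter or vector, and do not say whether libraries of a group came from separate mice, so the spread between them may be technical.

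Neutrophils are short-lived phagocytes that enter inflamed tissue and tumours, and inflammatory monocytes are their companions from the blood. Both are armed by Toll-like receptors, for which CD14 is a co-receptor, and both release interleukin 1 beta and the chemokines CXCL2 and CXCL3, which attract further neutrophils through the receptor CXCR2. Granulocyte colony-stimulating factor acts on the receptor encoded by Csf3r to drive the making of neutrophils. S100A8 and S100A9 pair to form calprotectin, an abundant metal-binding protein of the neutrophil cytosol, lipocalin 2 (Lcn2) binds bacterial iron carriers, and the protein encoded by Slpi inhibits neutrophil elastase. None of the 9 genes marks CD8+ T cells, and Il1b, Cxcl2, Cxcl3 and Cd14 are also made by activated macrophages.

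The sequences just before the transcription start are shown for the S100a8 and S100a9 pair and the Cxcl3 and Cxcl2 pair, because the members of each pair lie close together on a chromosome and varied together across the libraries. They are 250 bases each from RefSeq (build GRCm38.p6), read 5′ to 3′ on the gene's own strand, with capitals marking a TATA box or a match to the NF-kappaB consensus. The mm10 starts in the deposited table and the RefSeq starts were the same base for the 8 of the 9 genes found in the RefSeq table, all but Cd14.
S100a8, chr3:90668821-90669070, plus strand: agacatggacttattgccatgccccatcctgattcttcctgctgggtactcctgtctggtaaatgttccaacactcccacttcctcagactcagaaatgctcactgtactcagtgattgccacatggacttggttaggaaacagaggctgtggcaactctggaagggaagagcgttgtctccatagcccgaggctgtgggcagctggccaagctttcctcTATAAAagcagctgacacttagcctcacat
S100a9, chr3:90695722-90695971, minus strand: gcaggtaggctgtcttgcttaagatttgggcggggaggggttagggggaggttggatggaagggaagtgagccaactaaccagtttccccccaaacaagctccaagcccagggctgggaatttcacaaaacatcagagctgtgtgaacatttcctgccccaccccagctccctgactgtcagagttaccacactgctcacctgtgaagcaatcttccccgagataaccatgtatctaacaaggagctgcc
Cxcl3, chr5:90785851-90786100, plus strand: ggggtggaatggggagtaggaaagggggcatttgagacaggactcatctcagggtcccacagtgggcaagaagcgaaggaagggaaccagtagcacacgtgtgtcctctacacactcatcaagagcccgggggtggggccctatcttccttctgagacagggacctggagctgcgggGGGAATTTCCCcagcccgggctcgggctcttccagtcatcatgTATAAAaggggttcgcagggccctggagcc
Cxcl2, chr5:90903649-90903898, plus strand: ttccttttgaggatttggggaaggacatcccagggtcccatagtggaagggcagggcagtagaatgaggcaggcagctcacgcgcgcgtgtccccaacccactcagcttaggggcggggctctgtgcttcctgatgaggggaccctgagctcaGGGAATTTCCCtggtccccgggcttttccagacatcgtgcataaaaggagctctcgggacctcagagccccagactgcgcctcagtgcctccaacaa

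The RefSeq letters TATAAA lay 30 bases before the start of S100a8 and of Cxcl3 and 31 bases before that of Il1b. Searched on both strands, they were in 3 of the 8 windows, against 12.4% of the 32851 windows of the same length in the RefSeq table. The NF-kappaB consensus was found in the windows of Cxcl3 and Cxcl2 and in 3.90% of all windows. In both genes the matches on the plus and minus strands overlapped, and they began 73 bases before the start in Cxcl3 and 97 bases before it in Cxcl2. A pattern for C/EBP factors, TTNNGNAA on either strand, was in 6 of the 8 windows, those of S100a8, S100a9, Il1b, Cxcl2, Lcn2 and Slpi, and in 36.9% of all windows. The PU.1 core GAGGAA on either strand was in the windows of S100a8, Lcn2 and Csf3r and in 23.2% of all windows. These matches describe letters in the windows and say nothing of whether a factor was bound.

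The check of the labels was the level of Acss2, which was 80.7 and 86.3 FPKM in the ACSS2NLS libraries and 3.66 and 3.92 FPKM in the EV libraries. FPKM scale the tags on the exons of a gene by exon length and by the total tags of the library. The libraries held 48800000 and 48300000 tags (ACSS2NLS) and 46000000 and 49300000 tags (EV), rounded, recovered from the spacing of low values. CD8+ T cell genes were high throughout. Cd3e stood at 315 and 332 FPKM in ACSS2NLS, against 346 and 344 FPKM in EV. Cd8a stood at 161 and 145 FPKM in ACSS2NLS, against 186 and 161 FPKM in EV. Tags from other tumour cells were present in every library. Of all genes, 9810 averaged 1 FPKM or more and were compared with limma on log2(FPKM + 1), and all 9 genes followed here passed that filter, 5 of them (S100a8, S100a9, Csf3r, Cxcl3 and Lcn2) with an ACSS2NLS mean under 1 FPKM.

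The calprotectin genes were near 0 in one ACSS2NLS library and low in the other, and higher in both EV libraries. S100a8 (NM_013650, chromosome 3, 90669071 to 90670034, plus strand) was at 0.053 and 0.802 FPKM in the ACSS2NLS libraries, against 3.21 and 24.4 FPKM in the EV libraries. Those values rest on 1 and 15 tags in ACSS2NLS and on 57 and 465 tags in EV. The groups did not overlap, but the EV libraries differed 7.61-fold from each other. S100a9 (NM_009114, chromosome 3, 90692630 to 90695721, minus strand) was at 0 and 0.401 FPKM in ACSS2NLS, on 0 and 10 tags, against 2.87 and 24.1 FPKM in EV, on 68 and 612 tags. A count of 0 in the first ACSS2NLS library allows up to 0.119 FPKM of S100a9, taking 3 tags as the limit. Mean levels were 0.428 ± 0.530 FPKM in ACSS2NLS and 13.8 ± 15.0 FPKM in EV for S100a8 (SD, n = 2 each), and 0.201 ± 0.284 and 13.5 ± 15.0 FPKM for S100a9. In bulk libraries such as these, fewer cells of a type and less RNA per cell cannot be told apart.

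Lcn2 and Slpi, the other secreted defence proteins, were ordered in the same way. Lcn2 (NM_008491, chromosome 2, 32384637 to 32387739, minus strand) had 0 and 2 tags in ACSS2NLS (0 and 0.049 FPKM), against 58 and 345 tags in EV (1.49 and 8.28 FPKM). The ratio of ACSS2NLS to EV tags, scaled by library totals, was 0.00487, with an exact 95% interval of 0.000587 to 0.0177. Such intervals cover counting error only, since tags were pooled over the 2 libraries of each group. They leave out the spread between libraries, and the EV libraries lay 5.54-fold apart for Lcn2. The reads also carry no molecular identifiers. Slpi (NM_011414, chromosome 2, 164354070 to 164356507, minus strand) was at 0.518 and 1.74 FPKM in ACSS2NLS, against 4.73 and 25.5 FPKM in EV, so that the mean was 13.4-fold lower in ACSS2NLS. The microRNA gene Mir7678 lies within Slpi on the same strand and its reads cannot be told from those of Slpi. It was at 0.293 and 0.591 FPKM in ACSS2NLS, against 1.86 and 10.7 FPKM in EV.

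The chemokines Cxcl2 and Cxcl3 were low in both ACSS2NLS libraries and 33.5 and 8.14 FPKM in the second EV library. Cxcl2 (NM_009140, chromosome 5, 90903899 to 90905938, plus strand) was at 0.704 and 2.52 FPKM in ACSS2NLS, against 4.51 and 33.5 FPKM in EV. The second ACSS2NLS library lay 1.79-fold under the first EV library, while the EV libraries lay 7.44-fold apart. Cxcl3 (NM_203320, chromosome 5, 90786101 to 90788093, plus strand) had 0 and 3 tags in ACSS2NLS (0 and 0.061 FPKM), against 40 and 406 tags in EV (0.860 and 8.14 FPKM). Its tag ratio of ACSS2NLS to EV was 0.00659 (exact 95% interval 0.00135 to 0.0194, counting error only). The genes are paralogs, and 126 of the 2159 windows of 50 bases in annotated Cxcl2 transcripts also occurred in Cxcl3 transcripts, so a small share of reads could have been placed on either gene. Cxcl1, another CXCR2 ligand of this cluster, shared none of these windows with Cxcl2 or Cxcl3. It was at 0.196 and 0.351 FPKM in ACSS2NLS, against 0.185 and 1.14 FPKM in EV, and its groups overlapped.

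Il1b and Cd14, which macrophages and monocytes also make, kept the highest levels in ACSS2NLS. Il1b (NM_008361, chromosome 2, 129364578 to 129371139, minus strand) was at 3.17 and 2.94 FPKM in ACSS2NLS, against 8.92 and 27.5 FPKM in EV. Its ACSS2NLS libraries lay close together (3.05 ± 0.163 FPKM, SD, n = 2), and the mean was 5.97-fold lower there than in EV (18.2 ± 13.1 FPKM). Cd14 (NM_009841, chromosome 18, 36725064 to 36726815, minus strand) was at 3.09 and 5.04 FPKM in ACSS2NLS, against 5.90 and 29.1 FPKM in EV. The first EV library was 1.17 times the second ACSS2NLS library for Cd14, the narrowest gap of the 8 genes whose groups did not overlap. The antisense gene Il1bos overlaps Il1b on the other strand and reached no more than 0.073 FPKM in any library.

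Csf3r, the receptor that neutrophils and their precursors carry, was the exception. Csf3r (NM_007782, chromosome 4, 126024659 to 126044975, plus strand) was at 0.353 and 1.59 FPKM in ACSS2NLS, against 0.492 and 2.69 FPKM in EV. The second library of each group was high and the first was low, and the groups overlapped. The ratio of ACSS2NLS to EV tags, scaled by library totals, was 0.595 (exact 95% interval 0.521 to 0.679, counting error only), far nearer to 1 than for the other 8 genes.

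**Figure D1:**
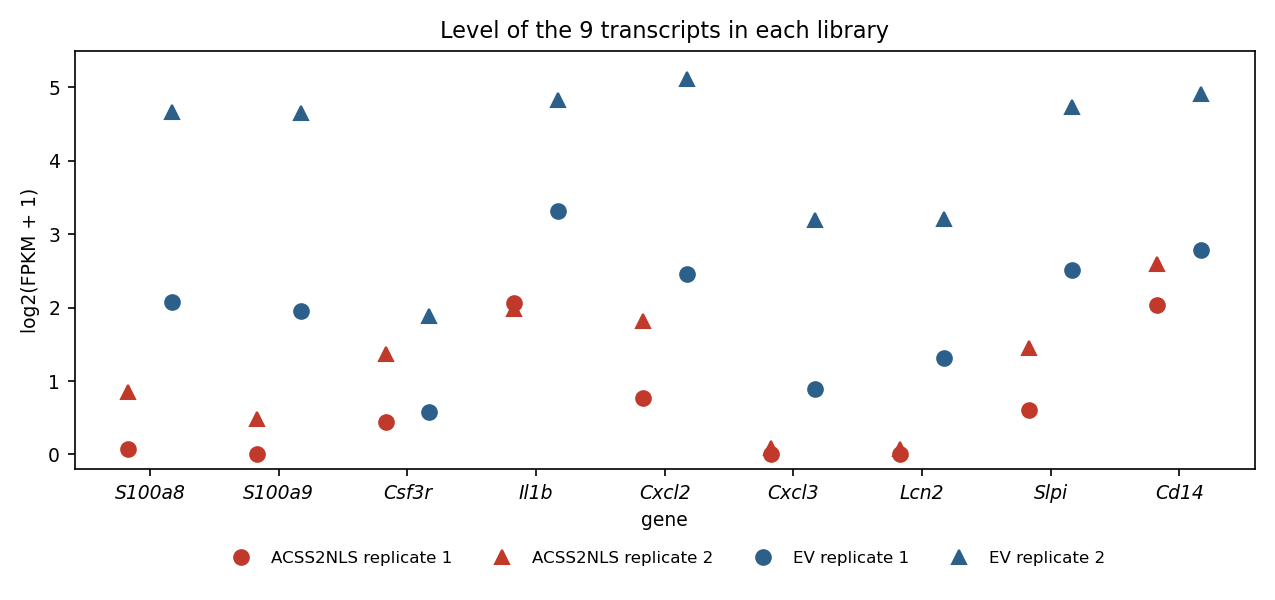
Level of each of the 9 genes on the log2(FPKM + 1) scale (y axis) by gene (x axis), with ACSS2NLS in red left of EV in blue, circles for replicate 1 and triangles for replicate 2 (1 point per library). EV replicate 2 has the highest point for every gene, and both ACSS2NLS points lie under both EV points for all genes but Csf3r.

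In order of mean FPKM in ACSS2NLS, the genes ran Cd14 (4.07), Il1b (3.05), Cxcl2 (1.61), Slpi (1.13), Csf3r (0.972), S100a8 (0.428), S100a9 (0.201), Cxcl3 (0.031) and Lcn2 (0.025). In EV the order was Cxcl2 (19.02), Il1b (18.2), Cd14 (17.5), Slpi (15.1), S100a8 (13.8), S100a9 (13.5), Lcn2 (4.89), Cxcl3 (4.50) and Csf3r (1.59). In the ACSS2NLS order both values of Il1b lay above both of Cxcl2, and every other pair of neighbours overlapped. In the EV order the values of all neighbours overlapped across libraries, as the EV libraries lay 3.08-fold (Il1b) to 9.47-fold (Cxcl3) apart. Within each EV library, though, Slpi, S100a8, S100a9, Lcn2, Cxcl3 and Csf3r ran down in that same order. In EV replicate 1, Il1b (8.92 FPKM) was highest, ahead of Cd14 (5.90), Slpi (4.73) and Cxcl2 (4.51). In EV replicate 2, Cxcl2 (33.5 FPKM) was highest, ahead of Cd14 (29.1), Il1b (27.5) and Slpi (25.5). The makeup of the summed level also differed between libraries. S100a8 and S100a9 together made up 0.672% and 7.95% of the sum in ACSS2NLS, against 18.4% and 26.4% in EV. Il1b and Cd14 together made up 79.4% and 52.7% of it in ACSS2NLS, against 44.9% and 30.9% in EV.

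The fit over all genes gave log2 differences (ACSS2NLS minus EV) with standard errors. These errors pool the disagreement between libraries over both groups and are moderated by limma with the other genes. They were -3.06 ± 0.84 for S100a9, -2.91 ± 0.83 for S100a8, -2.60 ± 0.73 for Slpi, -2.49 ± 0.87 for Cxcl2 and -2.23 ± 0.60 for Lcn2 (SE, n = 2 per group). They were -2.05 ± 0.48 for Il1b, -2.001 ± 0.72 for Cxcl3, -1.53 ± 0.68 for Cd14 and -0.33 ± 0.51 for Csf3r. The log2(FPKM + 1) scale understates the change of low genes. None of the 9 passed limma's threshold (two-sided, Benjamini-Hochberg adjusted over all genes), where 0% of genes passed downward and 0.0204% upward. At an unadjusted limma p under 0.05, 7 of the 9 were lower, beside 2.87% of all genes. The median log2 difference of the 9 was -2.23, beside 0.02 over all genes tested. For 8 of the 9 both ACSS2NLS libraries lay below both EV libraries, which held for 18.1% of all genes, and 8 had a difference of -1 or lower, beside 0.387% of all genes. Since the genes were chosen with these values in view, nothing is read from those counts.

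A single library, EV replicate 2, set the size of the differences. It held 53.1% (Csf3r) to 90.4% (Cxcl3) of all tags of a gene over the 4 libraries. Without it the log2 difference was -1.61 for S100a8, -1.71 for S100a9, -1.49 for Slpi, -1.17 for Cxcl2, -1.28 for Lcn2, -1.29 for Il1b, -0.85 for Cxcl3, -0.47 for Cd14 and 0.33 for Csf3r. The 8 genes other than Csf3r still had both ACSS2NLS libraries below EV replicate 1, as did 31.4% of all genes. With another library left out, every ACSS2NLS library lay below every EV library for 9 of the 9 genes without EV replicate 1 (28.6% of all genes), for 8 without ACSS2NLS replicate 1 (31.6%) and for 9 without ACSS2NLS replicate 2 (39.4%). Without EV replicate 1 those 8 passed the limma threshold downward, with adjusted p from 0.00792 (S100a9) to 0.0423 (Cd14 and Cxcl2). That fit compares a lone EV library, assumed to vary like the ACSS2NLS pair, and called 0.0917% of all genes downward, 9 in number, of which the ninth was Mir7678 inside Slpi. Without ACSS2NLS replicate 1 the difference of Csf3r turned to 0.14. Without ACSS2NLS replicate 2 it was -0.79.

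**Figure D2:**
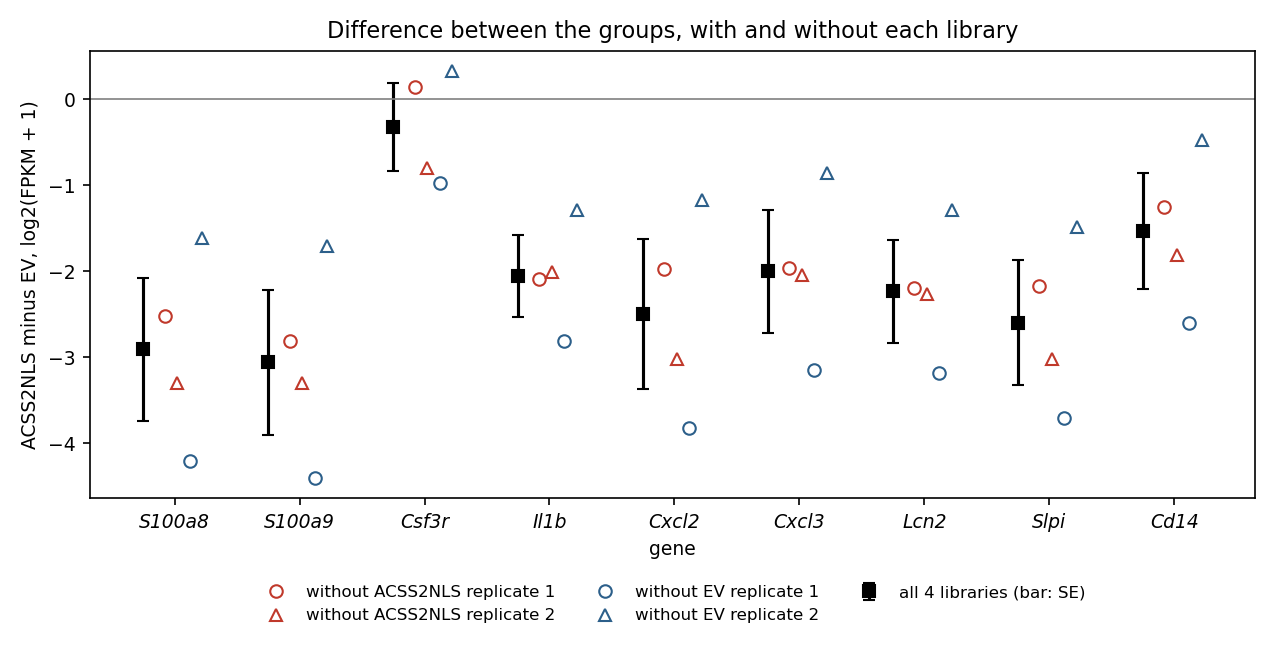
Difference between the group means on the log2(FPKM + 1) scale (y axis) by gene (x axis), as black squares for all 4 libraries with bars of 1 SE, and as open symbols with 1 library left out. Leaving out EV replicate 2 brings every gene closest to 0 or, for Csf3r, to 0.33, and leaving out EV replicate 1 gives the lowest value of every gene, -4.40 for S100a9.

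Between the groups, the 9 genes and the macrophage genes of the same libraries were ordered differently, while within each group both sums were higher in replicate 2. Summed over the 9 genes, the level was 7.89 and 15.1 FPKM in ACSS2NLS, against 33.0 and 183 FPKM in EV. Summed over 19 macrophage genes, it was 221 and 1002 FPKM in ACSS2NLS, against 84.4 and 529 FPKM in EV. The macrophage sum was thus highest in an ACSS2NLS library and lowest in an EV library, and 14 of its 15 tested genes averaged higher in ACSS2NLS (median log2 difference 0.87), with 0 passing the limma threshold and 0 at an unadjusted p under 0.05. Examples are the complement gene C1qa, at 9.63 and 52.6 FPKM in ACSS2NLS, against 1.21 and 22.1 FPKM in EV, and Adgre1, which encodes F4/80, at 1.69 and 8.40 FPKM, against 0.311 and 4.89 FPKM in EV.

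Set against the macrophage sum, the 9 genes amounted to 3.57% and 1.51% in ACSS2NLS, and to 39.1% and 34.6% in EV. The EV libraries lay close together on this ratio although both of its terms differed over 5-fold between them. Between the EV libraries, the ratio to Lyz2 varied less than this for S100a8 and more for Cd14 and Il1b. S100a8 was 0.0879% and 0.344% of the level of Lyz2, the lysozyme gene of macrophages and neutrophils, in ACSS2NLS, against 17.8% and 17.8% in EV. The ACSS2NLS values rest on 1 and 15 tags of S100a8. Cd14 was 5.13% and 2.16% of Lyz2 in ACSS2NLS, against 32.8% and 21.2% in EV. Il1b was 0.0525 and 0.0126 times Lyz2 in ACSS2NLS, against 0.496 and 0.200 times in EV, so that the EV libraries matched closely for S100a8 and not for Cd14 or Il1b. The smallest p of an exact permutation test of 2 libraries against 2 is 0.333, so these ratios are given as values. Against the summed T cell genes, the 9 amounted to 0.345% and 0.820% in ACSS2NLS, and to 1.32% and 8.77% in EV. The melanoma marker sum moved like the macrophage sum, at 12.2 and 141 FPKM in ACSS2NLS, against 5.71 and 39.4 FPKM in EV, and the part of either cell type in the levels of the 9 genes was not tested.

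**Figure D3:**
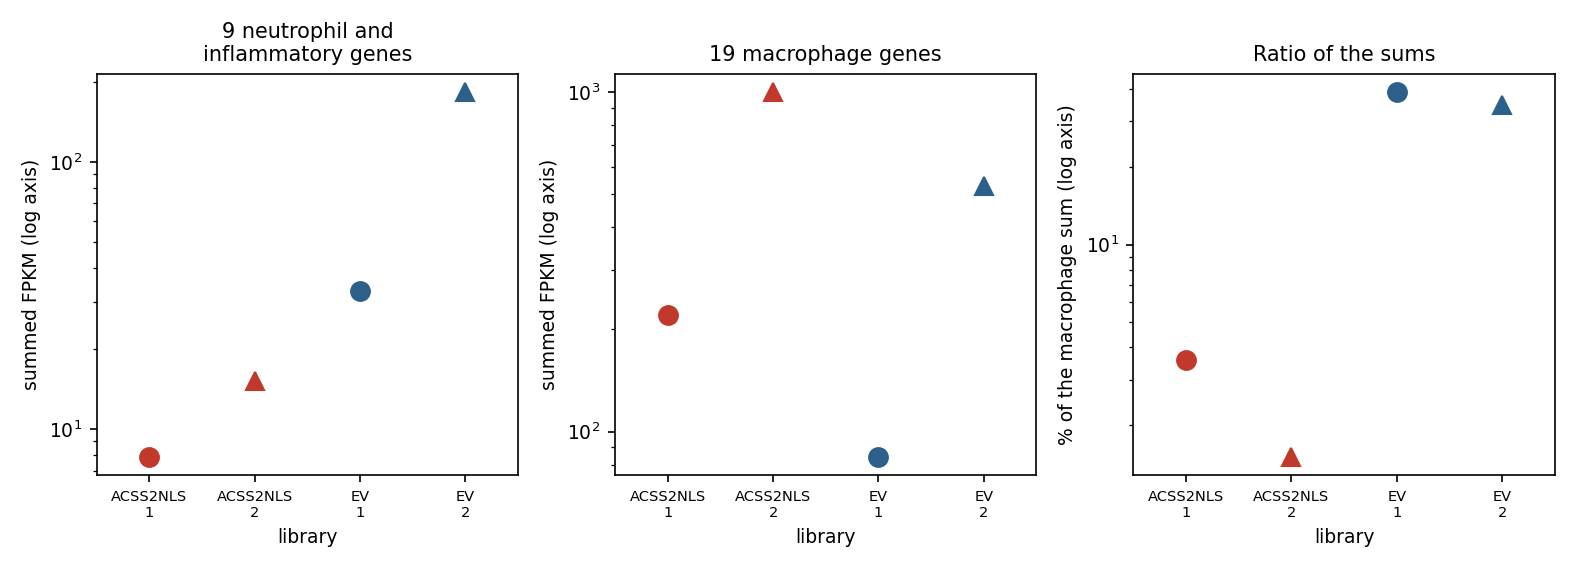
Summed FPKM of the 9 genes (left) and of 19 macrophage genes (middle), and the first as a percentage of the second (right), all on log axes, by library, with ACSS2NLS in red and EV in blue (circles replicate 1, triangles replicate 2). The percentage is 3.57 and 1.51 in ACSS2NLS and 39.1 and 34.6 in EV, while the macrophage sum of the groups overlaps.

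Other neutrophil genes gave a mixed picture, and Ly6g, Mpo and Elane were at or near 0. Ly6g, the classical surface marker of mouse neutrophils, had 4 and 1 tags in ACSS2NLS and 7 and 1 tags in EV. The primary granule genes Mpo and Elane had at most 4 tags in any library, while the secondary granule genes Camp and Ngp reached 9 and 45 tags in EV replicate 2 and no more than 6 tags in any other library. Ltf, which encodes lactoferrin of the same granules, ran the other way, at 1.17 and 2.37 FPKM in ACSS2NLS, against 0.439 and 0.894 FPKM in EV. Prtn3, a primary granule gene named here after its values were seen, had 4 and 9 tags in ACSS2NLS, against 1 and 4 tags in EV. Its groups were parted only by 0.085 FPKM in ACSS2NLS replicate 1 against 0.084 FPKM in EV replicate 2, both on 4 tags. Mmp9 was lower in both ACSS2NLS libraries, at 0.279 and 0.301 FPKM, against 0.427 and 0.803 FPKM in EV. Over the 12 granule genes, 1 had both ACSS2NLS libraries below both EV libraries and 2 had both above, beside 13.7% and 18.1% of every gene with a tag. Ltf was the single granule gene tested and was higher at an unadjusted limma p under 0.05, beside 3.1% of all genes. The 9 genes are described here by their symbols. The cell source of the 9 genes was not tested.

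Of 21 surface and maturity genes of neutrophils, 8 had both ACSS2NLS libraries below both EV libraries and 0 had both above. The shares of every gene with a tag in any library were 13.7% and 18.1%, as above. The list was written with earlier results of these libraries known. The 8, of which all but Retnlg and Hdc are named here after their values were seen, were Retnlg, Hdc, Trem1, Mrgpra2b, Stfa2l1, Wfdc21, Asprv1 and Il1f9. Retnlg, a secreted product of mature mouse neutrophils, had 0 and 0 tags in ACSS2NLS, against 8 and 36 tags in EV. Cxcr2, the receptor for CXCL2 and CXCL3, had 0 and 6 tags in ACSS2NLS, against 2 and 48 tags in EV, so that its groups overlapped. Wfdc21 had 0 and 1 tags in ACSS2NLS, against 12 and 28 tags in EV. Clec4e, a receptor for microbial glycolipids on neutrophils and macrophages, was at 0.212 and 3.61 FPKM in ACSS2NLS, against 1.10 and 5.91 FPKM in EV, again with overlap. Of the 5 of these 21 genes that passed the filter, 0 passed the limma threshold and 1 was lower at an unadjusted p under 0.05 (2.87% of all genes), the histidine decarboxylase gene Hdc.

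The list of inflammatory monocyte genes had members on both sides. Of 25 genes, 18 passed the filter, with 11 lower and 7 higher in mean, a median log2 difference of -0.10 and 0 past the limma threshold (0 also at an unadjusted p under 0.05). Both ACSS2NLS libraries lay below both EV libraries for 2 of the 18, beside 18.1% of all tested genes. They were Osm, which encodes oncostatin M, and the transcription factor gene Cebpb. The monocyte chemokine genes Ccl2 and Ccl7, chosen after their values were seen, had log2 differences of 1.41 and 1.44, with overlapping groups. Saa3, an acute phase gene chosen in the same way, was at 0.781 and 6.74 FPKM in ACSS2NLS, against 4.64 and 65.5 FPKM in EV. Its log2 difference of -2.38 ± 1.26 was in the range of the 9 genes, but its groups overlapped. Ly6c2, Plac8 and Ccr2, which activated CD8+ T cells express as well as monocytes, were high in every library. Ly6c2 was at 422 and 260 FPKM in ACSS2NLS, against 372 and 284 FPKM in EV. Plac8 was at 244 and 151 FPKM in ACSS2NLS, against 238 and 202 FPKM in EV. Ccr2 was at 17.7 and 18.3 FPKM in ACSS2NLS, against 18.7 and 16.5 FPKM in EV.

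**Figure D4:**
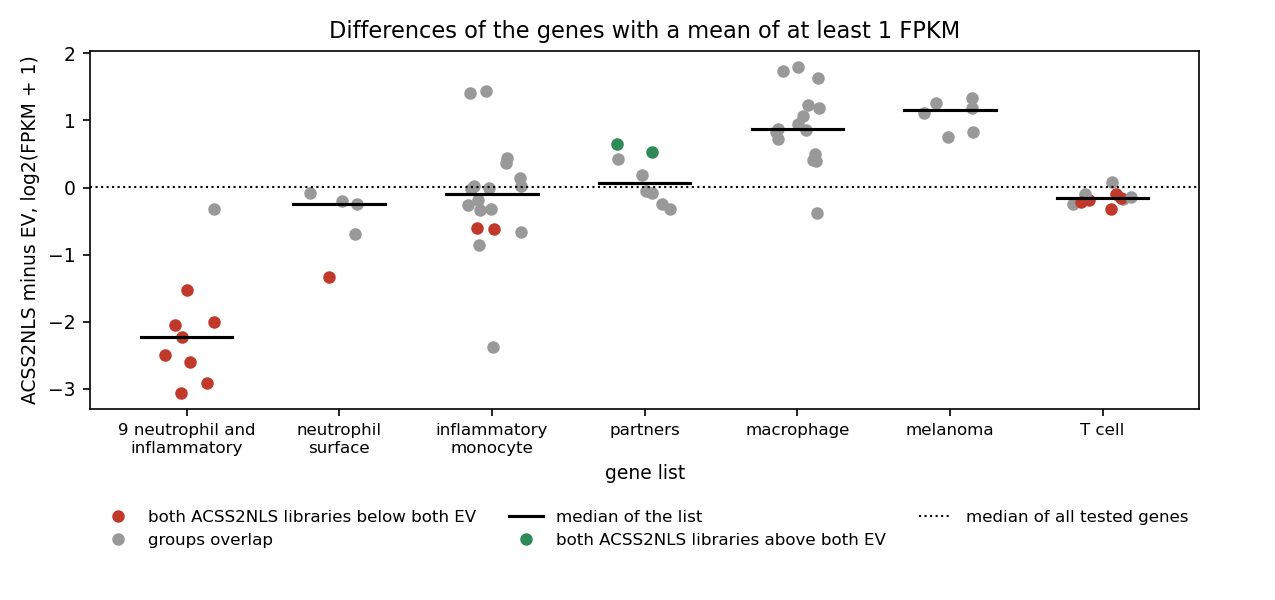
Difference between the group means on the log2(FPKM + 1) scale (y axis) of genes that averaged 1 FPKM or more, by gene list (x axis), coloured by whether both ACSS2NLS libraries lay below or above both EV libraries. Bars are list medians and the dotted line is the median of all tested genes, 0.02. The 9 genes followed here, labelled neutrophil and inflammatory, have a median of -2.23, the macrophage genes 0.87 and the T cell genes -0.16.

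The ligands, receptors and processing genes that work with the 9 were measured in the same libraries, as a list of 19 genes. Csf3, which encodes the ligand of the receptor Csf3r, had 0 and 0 tags in ACSS2NLS, against 7 and 78 tags in EV (0.112 and 1.17 FPKM). Tlr4, Ly96, Lbp and Myd88 encode the receptor, adaptor and carrier proteins of the endotoxin pathway that CD14 serves. Tlr4 was at 0.205 and 1.06 FPKM in ACSS2NLS, against 0.108 and 0.386 FPKM in EV, and Ly96 at 1.06 and 2.98 FPKM, against 0.682 and 0.973 FPKM in EV. Ly96 was thus higher in both ACSS2NLS libraries, opposite to Cd14. Lbp reached at most 0.154 FPKM, and Myd88 stood between 25.1 and 28.1 FPKM in all libraries.

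On the interleukin 1 side, Casp1, which encodes the protease that matures interleukin 1 beta, was at 17.1 and 18.0 FPKM in ACSS2NLS, against 11.9 and 11.6 FPKM in EV. Its log2 difference was 0.54 ± 0.11 (limma, adjusted p = 0.775), and it did not pass. The inflammasome gene Nlrp3 was at 0.051 and 0.413 FPKM in ACSS2NLS, against 0.261 and 1.44 FPKM in EV, and its adaptor Pycard was at 26.7 and 24.7 FPKM, against 20.3 and 24.97 FPKM in EV. Il1rn, which encodes the natural receptor antagonist, was at 1.25 and 6.80 FPKM in ACSS2NLS, against 1.91 and 8.31 FPKM in EV. Il1b was 2.54 and 0.432 times Il1rn in ACSS2NLS, against 4.67 and 3.31 times in EV. The decoy receptor gene Il1r2, which is on the neutrophil list too, was at 17.015 and 20.5 FPKM in ACSS2NLS, against 24.7 and 20.1 FPKM in EV, the highest level of that list and one with overlapping groups. Il1rap, the shared receptor chain, was at 1.53 to 1.94 FPKM and the signalling receptor gene Il1r1 at no more than 0.082 FPKM in any library.

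The remaining partners, apart from Spi1, were low. Slc22a17, which encodes a receptor for lipocalin 2, was at 0.296 and 0.136 FPKM in ACSS2NLS, against 0.477 and 0.480 FPKM in EV. Ager, a receptor for S100 proteins, was at 0.061 to 0.202 FPKM. Cxcr1 had 2 tags in EV replicate 2 and 0 in the other libraries, and the granulocyte transcription factor gene Cebpe had 1 tag in ACSS2NLS replicate 1 and 0 elsewhere. Spi1, which encodes PU.1 of all myeloid cells, was at 4.70 and 12.1 FPKM in ACSS2NLS, against 3.10 and 9.07 FPKM in EV. Of the 8 genes of this list that passed the filter, 0 passed the limma threshold in either direction, 1 was higher at an unadjusted p under 0.05 (3.1% of all genes), and the median log2 difference was 0.06.

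The neighbours of the pairs on the chromosome had other levels. S100a8 and S100a9 lie 22595 bases apart, and 9 genes of the table overlap the window from 100 kb before to 100 kb after the pair. Of the other genes there, S100a4 was at 98.0 and 84.2 FPKM in ACSS2NLS, against 88.8 and 97.0 FPKM in EV, and S100a6 at 229 and 151 FPKM, against 227 and 195 FPKM in EV. The others, S100a2, S100a3, S100a5, S100a7a and Pglyrp4, were at 0.192 FPKM or less in every library. Cxcl3 and Cxcl2 lie 115805 bases apart, and 8 genes overlap their window. Pf4, a platelet and macrophage chemokine gene there, was at 0.457 and 7.13 FPKM in ACSS2NLS, against 0.187 and 4.77 FPKM in EV. Cxcl5, Cxcl15 and Ppbp were at 0.211 FPKM or less. These neighbours were chosen by distance after the values of the pairs were seen.

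The genes with profiles nearest to S100a8, by the root mean square difference of centred log2(FPKM + 1) over the 4 libraries, were S100a9 (0.13), Slpi (0.21), Cxcl2 (0.23), Lcn2 (0.49) and Cxcl3 (0.52). All 5 were among the 9 genes. Nearest to Il1b were Lcn2 (0.17), Cxcl3 (0.28), Hdc (0.37), the haptoglobin gene Hp (0.37) and Cd14 (0.41). Hdc was at 0.541 and 0.408 FPKM in ACSS2NLS, against 1.34 and 4.88 FPKM in EV, and Hp at 0.180 and 0.892 FPKM, against 1.51 and 6.64 FPKM in EV. The ranking was over protein-coding genes, leaving out those with provisional or clone names. The 4 libraries are the same ones for all genes, so nearness is a description of these libraries.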

How the data were processed

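RNA of 4 libraries was prepared with the RNeasy Plus Micro and SMART-Seq v4 Ultra Low Input kits, per the labels' protocols. The submitters' processing notes name STAR 2.5.3a, HOMER and the mm10 build. Per the file headers, the authors counted sense tags on RefSeq exons with HOMER, kept a single transcript per gene and deposited FPKM. The sources used here do not say if library strand was kept. The deposited columns are named Acss2WT and Acss2OE and were read as EV and ACSS2NLS. The header names 8 tag directories and the table has 4 library columns.

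No count test was run on the deposited FPKM. Genes averaging 1 FPKM or more were compared as log2(FPKM + 1) with limma-trend (limma 3.58.1, R 4.3.3), ACSS2NLS minus EV. The code of the fit was checked on simulated data with independent noise between libraries, which does not measure its error rate on these libraries. Low FPKM times gene length fell on whole tags for 100% of the values checked (500 to 2000 bases, up to 50 tags, tolerance 0.1), which gave the tags per gene, with exact Poisson or binomial 95% intervals. Replicates differed by more than counting noise (chi-square per degree of freedom 57.1 in ACSS2NLS and 37.9 in EV). A count of 0 was taken to allow 3 tags. The genes and lists were chosen with earlier results of these data known. Genes were named by rule: all 9 genes, defining markers of other cells, all 19 partners, up to 2 genes with the highest mean of each other list, and the 5 nearest to S100a8 and to Il1b. Genes outside this rule are named as picked on their values. The alternatives were other pseudocounts, filters and scaling, a replicate block and leaving out each library.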

Additional observations from a re-analysis of the deposited data

How the results depend on the processing

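With pseudocounts of 0.1 and 0.5, no filter on low values or quantile normalization, the 9 genes stayed lower in ACSS2NLS and missed the limma threshold, with log2 differences from -5.24 to -0.33. A minimum mean of 5 FPKM left 6 of them, with the same outcome. With a library left out Csf3r ranged from -0.98 to 0.33, at 0.33 without EV replicate 2 and 0.14 without ACSS2NLS replicate 1, which follows from the levels of the libraries left. Over all genes, 2 passed upward and 0 downward. The upward count was 1 with no filter, 2 in each fit with a library left out, and 229 with a replicate block. The downward count ranged from 0 to 9 with a library left out and was 172 with the block. Under the block 8 of the 9 genes passed (all but Csf3r, adjusted p = 0.424). The labels do not say that equal numbers share a mouse or day. Replicate 1 minus replicate 2 correlated at 0.58 between the groups across 9810 genes, and the blocked fit leaves 1 residual degree of freedom. The block left the log2 differences of the summed level (-2.83) and of the ratio to the macrophage sum (-3.98) as they were. With a library left out, the first ranged from -4.07 to -1.59 and the second from -4.61 to -3.36. Weighting genes equally made them -2.13 and -2.95. With a library left out, 8 or 9 genes had no overlap between the groups, beside 28.6% to 39.4% of all genes in that order; this and the block on the sums were added after seeing the data. Depth limits Cxcl3, Lcn2, S100a8 and S100a9 in ACSS2NLS, where they had 0 to 15 tags per library. With 2 libraries per group, each spread rests on a single difference.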

Other observations

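Markers of further cell types were measured in the same libraries. Of 10 epithelial genes, 4 were at 0 in every library, and Krt14 and Epcam, which mark skin and other epithelia that can make Slpi, Lcn2 and calprotectin, reached at most 0.037 and 0.730 FPKM. The highest of the list, Sfn, was at 2.43 and 2.51 FPKM in ACSS2NLS, against 3.42 and 2.58 FPKM in EV, lower in both ACSS2NLS libraries. Of 14 mast cell, basophil and eosinophil genes, 2 were at 0 in every library and Siglecf was the single one with a mean of at least 1 FPKM, at 2.86 and 2.11 FPKM in ACSS2NLS, against 4.70 and 3.66 FPKM in EV. It too was lower in both ACSS2NLS libraries, an order that 18.1% of all tested genes had.

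The dendritic cell genes had 3 of 4 tested genes with a higher mean in ACSS2NLS, among them Itgax at 6.82 and 11.5 FPKM in ACSS2NLS, against 7.01 and 8.31 FPKM in EV, and Cd209a at 2.35 and 1.35 FPKM, against 0.428 and 0.963 FPKM in EV. Stromal, endothelial and red cell genes had 5 of 6 tested genes higher in mean, with Pecam1 at 9.22 and 10.2 FPKM in ACSS2NLS, against 8.496 and 9.28 FPKM in EV, and Hbb-bs at 8.37 and 2.42 FPKM, against 3.29 and 5.34 FPKM in EV. Of the CD4 and regulatory T cell genes, Cd4 was at 1.61 and 2.22 FPKM in ACSS2NLS, against 1.11 and 2.40 FPKM in EV. Foxp3 was at 2.85 and 3.89 FPKM in ACSS2NLS, against 2.37 and 3.74 FPKM in EV. Il2ra, the highest of that list, was at 14.4 and 21.0 FPKM in ACSS2NLS, against 20.1 and 19.6 FPKM in EV. Which cells the transcripts of that list came from was not tested. Of the B and NK cell genes, Cd79b was at 2.57 and 2.54 FPKM in ACSS2NLS, against 1.37 and 2.09 FPKM in EV, and Ncr1 was at 0.930 and 0.711 FPKM, against 1.08 and 1.26 FPKM in EV. The T cell genes had 9 of 10 with a lower mean in ACSS2NLS (median log2 difference -0.16). None of the tested genes of these lists passed the limma threshold, while 1 dendritic gene and 1 stromal, endothelial or red cell gene were higher at an unadjusted p under 0.05 (3.1% of all genes) and Siglecf was lower (2.87%). Among melanoma genes, Mlana was at 1.67 and 15.4 FPKM in ACSS2NLS, against 1.15 and 2.90 FPKM in EV, and Pmel was at 3.15 and 29.6 FPKM, against 0.802 and 10.025 FPKM in EV.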
